A study of Mus musculus with 12 samples.

Results

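The injured spinal cord of mice lacking interleukin-1 beta (Il1b KO) was compared with that of wild-type C57BL/6 mice, gene by gene, on 4 arrays of each genotype. These 8 arrays were part of a series of 12, whose other 4 came from mice lacking interleukin-1 alpha (Il1a KO). All mice were on the C57BL/6 background, were aged 8 to 12 weeks and had received a contusion of 50 kdyn, and a 6 mm length of cord around the lesion was taken 24 h later. Both groups compared were therefore injured, and the contrast is one of genotype within the lesion. The labels call the arrays biological replicates without naming animals, so p-values measure the spread between these arrays, which may in part be technical. Each gene was represented by its brightest probe set with a single gene symbol, which gave 19938 genes, and values are log2 signals, on which a difference of 1 is a doubling. Genes were called where the limma p, adjusted by Benjamini and Hochberg over all genes, was under 0.05. The 161 called genes with a known position were then sorted by their neighbours. A run held at least 3 called genes of a chromosome with at most 10 measured genes from each to the next, a pair held 2, and all others were isolated. There were 45 genes in 12 runs, 36 in 18 pairs and 80 isolated genes, and Gm10589 had no position.

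Interleukin-1 beta is a cytokine made by microglia, monocytes and neutrophils as an inactive precursor, which inflammasomes cut through caspase-1. It signals through the interleukin-1 receptor, its accessory protein, MyD88 and the IRAK kinases to NF-kB, and it drives chemokines, adhesion molecules and acute-phase genes in endothelium and glia. Interleukin-1 alpha binds the same receptor, Il1rn encodes its natural antagonist and Il1r2 a decoy. In the contused cord the first day is marked by haemorrhage, microglial activation and the entry of neutrophils.

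Correlations between arrays over all genes ran from 0.993 to 0.999. The leading principal component set wild type replicate 1 apart rather than the genotypes, and without that array 138 genes passed the test described above, 65 higher and 73 lower. The second component (15.3% of the variance) did separate the groups compared. It ran from 3.29 to 7.96 on the Il1b KO arrays and from -13.8 to -0.931 on the wild-type arrays. The labelled tissue matched its markers, as the neuron markers had a median percentile of 97.3 among all genes, those of mature oligodendrocytes 99.3 and those of astrocytes 94.1, against 25.7 for neutrophils and 14.0 for B lymphocytes. Il1a KO replicate 1 differed from the other 11 arrays in sex-linked genes (Xist 6.47 against at least 11.89 elsewhere), and it enters the comparison only through the shared estimate of spread. The tissue is a mixture of cells, so fewer cells of a type and less RNA per cell cannot be told apart in any result.

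Il1b itself was examined first. Il1b read 7.83, 7.68, 7.78 and 8.06 on the wild-type arrays and 6.19, 6.63, 6.47 and 6.39 on the Il1b KO arrays. All 4 knockout arrays lay below all 4 wild-type arrays, and the mean fell from 7.83 ± 0.161 (SD, n = 4) to 6.42 ± 0.183, a 2.67-fold difference (limma adjusted p = 2.64e-06; log2 fold change -1.42, SE 0.0939). By group mean the probe set lay at percentile 44.2 of all genes in wild type and 21.4 in the Il1b KO. The sources used here did not give the deleted exons or where the probes lie, so the signal in the knockout does not show that transcript remained. The neighbours on either side of Il1b on chromosome 2 moved in opposite directions. Il1bos, a long noncoding RNA that overlaps Il1b on the other strand, read 6.15, 5.72, 5.55 and 5.95 in wild type and 6.66, 6.75, 6.81 and 6.95 in the knockout. It rose 1.93-fold (log2 fold change 0.95, limma adjusted p = 3.62e-04). Whether its probes tell the strands apart is not stated in the labels. Il1a read 6.22, 5.78, 5.74 and 5.76 in wild type and 4.85, 5.31, 5.01 and 5.24 in the Il1b KO, a fall of 1.71-fold (limma adjusted p = 0.00390) in a dim gene (percentile 9.37 by its mean over the 12 arrays), with wild type replicate 1 high. For comparison, Il1a averaged 5.87 ± 0.232 in wild type, 5.10 ± 0.209 in the Il1b KO and 4.97 ± 0.0749 in the Il1a KO, so its signal was lower in the knockout of either cytokine. The Il1a KO shares its wild-type arrays with this comparison, so its values are given side by side and not as separate evidence.

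**Figure D1:**
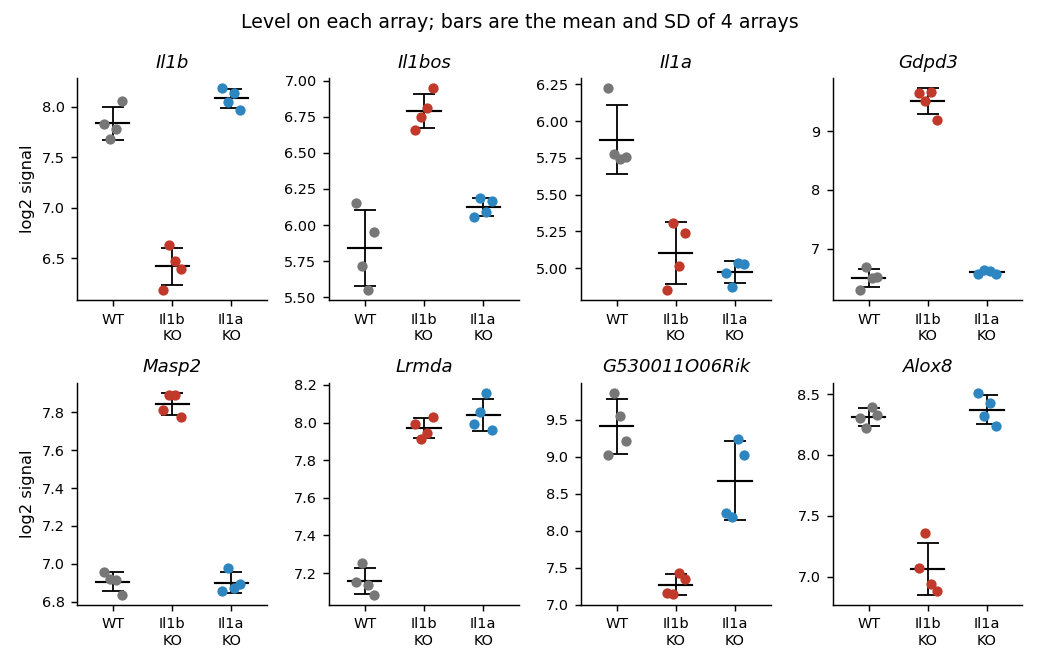
Log2 signal of Il1b, its neighbours Il1bos and Il1a and 5 isolated genes on each array. Points are arrays (4 wild type, 4 Il1b KO and 4 Il1a KO), and bars give the mean and SD. Gdpd3, Masp2 and Alox8 differ from wild type in the Il1b KO, where their arrays stand clear of wild type, while the Il1a KO arrays lie at the wild-type level, and Lrmda is high in either knockout.

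Promoters are printed for 4 genes, to show the targeted gene and 3 genes lower in the knockout whose promoters hold an interferon-response motif. Each is the 250 bases before the RefSeq start in GRCm38.p6, written 5′ to 3′ along the gene's strand. Capitals mark matches on either strand to 3 motifs, the interferon-stimulated response element core (GAAA, any 2 bases, GAAA), the NF-kB consensus and TATAAA. Il1b lies at chr2:129371140-129371389 (minus strand), where only TATAAA matched, close to the start.
Il1b: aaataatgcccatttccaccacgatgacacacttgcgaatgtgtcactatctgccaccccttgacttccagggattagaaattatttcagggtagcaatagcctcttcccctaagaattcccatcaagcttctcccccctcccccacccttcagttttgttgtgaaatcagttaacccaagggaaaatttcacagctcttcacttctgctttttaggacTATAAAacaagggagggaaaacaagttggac
Cd59a lies at chr2:104095551-104095800 (plus strand) and holds the interferon-response core.
Cd59a: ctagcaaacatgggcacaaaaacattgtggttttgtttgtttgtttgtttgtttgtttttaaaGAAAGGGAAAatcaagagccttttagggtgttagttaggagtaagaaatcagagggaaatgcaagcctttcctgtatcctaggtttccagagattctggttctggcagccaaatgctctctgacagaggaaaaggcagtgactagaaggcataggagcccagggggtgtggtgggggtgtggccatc
B2m lies at chr2:122147437-122147686 (plus strand), with TATAAA on the opposite strand, the interferon-response core and an NF-kB match next to each other, in that order.
B2m: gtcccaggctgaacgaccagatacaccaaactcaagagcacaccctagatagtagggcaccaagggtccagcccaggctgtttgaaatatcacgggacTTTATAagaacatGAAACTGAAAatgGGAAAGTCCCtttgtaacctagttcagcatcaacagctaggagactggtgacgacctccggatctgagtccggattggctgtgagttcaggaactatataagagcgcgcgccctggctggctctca
Trim30d lies at chr7:104507850-104508099 (minus strand), with TATAAA far from the start and the interferon-response core near it, both on the opposite strand.
Trim30d: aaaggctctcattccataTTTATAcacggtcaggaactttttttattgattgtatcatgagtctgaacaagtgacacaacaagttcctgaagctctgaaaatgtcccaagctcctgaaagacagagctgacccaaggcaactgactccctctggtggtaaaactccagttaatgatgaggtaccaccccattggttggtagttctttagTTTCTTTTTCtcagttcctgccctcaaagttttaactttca

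Across the whole array 162 of 19938 genes (0.813%) passed the test, 84 higher (0.421%) and 78 lower (0.391%) in the Il1b KO. A change of 1.5-fold or more was reached by 32 of them (0.16% of all genes), of which 11 rose and 21 fell. These 32 genes kept their call in each of the 8 fits that left out an array and in the fit of the 8 compared arrays alone. The smaller changes were less secure, since 63 of the 130 genes under 1.5-fold kept their call in all 8 of those fits. The total was 107 genes without Il1b KO replicate 1, 106 without wild type replicate 4 and 85 when only the 8 arrays entered. Without Il1a KO replicate 1, the array that differed in sex-linked genes, 147 genes passed, 70 higher and 77 lower. Quantile-normalizing the values again gave 69 higher and 98 lower genes, so the balance of rises and falls moved with the scaling. Without adjustment 2593 genes (13% of all) had a p under 0.05, 1679 higher (8.42%) and 914 lower (4.58%). In 1396 genes (7% of all) every array of 1 group lay above every array of the other, the knockout being higher in 1009 (5.06%) and lower in 387 (1.94%).

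**Figure D2:**
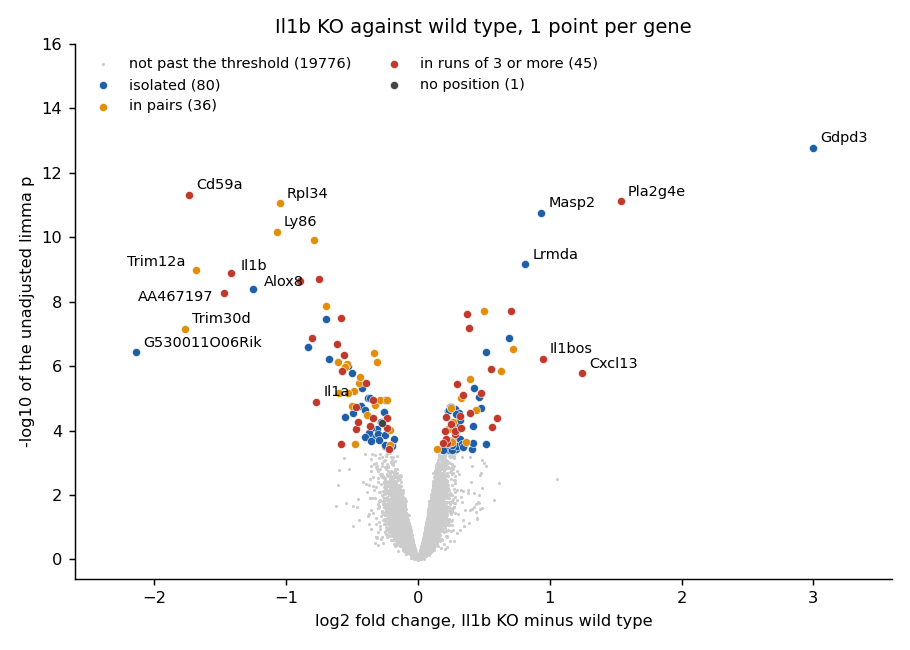
Log2 fold change (x axis, Il1b KO minus wild type) against -log10 of the unadjusted limma p (y axis), with 1 point per gene. Colours separate the 45 called genes in runs, the 36 in pairs, the 80 isolated genes and the gene without a position; Gdpd3 stands farthest to the right, and G530011O06Rik farthest to the left.

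Isolated genes included the largest rise and the largest fall on the array. Gdpd3, a glycerophosphodiesterase that forms lysophosphatidic acid, read 6.30, 6.68, 6.51 and 6.52 in wild type and 9.66, 9.52, 9.66 and 9.19 in the Il1b KO. Its lowest knockout array lay far above its highest wild-type array, and the rise was 8.01-fold (95% interval of the log2 fold change 2.79 to 3.21, limma adjusted p = 3.3e-09). In the Il1a KO it averaged 6.59 ± 0.0292, beside 6.50 ± 0.158 in wild type. Masp2, the protease that starts the lectin pathway of complement, read 6.95, 6.92, 6.91 and 6.84 in wild type and 7.81, 7.89, 7.89 and 7.77 in the knockout, a tight separation and a 1.91-fold rise (limma adjusted p = 6.91e-08). Elovl7, an elongase of long-chain fatty acids, went from 10.17, 10.43, 10.35 and 10.34 to 11.14, 10.99, 11.02 and 10.89, 1.61-fold higher (limma adjusted p = 1.11e-04). This was the brightest of the 4 isolated genes that rose by at least 1.5-fold.

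Lrmda, named for a role in melanocyte differentiation, rose 1.76-fold in the Il1b KO, from 7.15, 7.25, 7.14 and 7.09 to 7.99, 7.91, 7.95 and 8.03 (limma adjusted p = 1.7e-06), and in the Il1a KO it averaged 8.04 ± 0.0858. Its values in the 2 knockouts were thus close, both well above the shared wild-type arrays, and the Il1a KO value passed as well (limma adjusted p = 1.61e-06). Of the other isolated genes that rose, Scn4b, Pkd2l1, Aim2, Ankub1 and Olfml1 also passed against wild type in the Il1a KO. Scn4b, a sodium channel beta subunit, averaged 9.97 ± 0.0684 in wild type, 10.26 ± 0.0333 in the Il1b KO and 10.26 ± 0.0729 in the Il1a KO. Pkd2l1, an ion channel of cerebrospinal fluid-contacting neurons, averaged 7.85 ± 0.135, 8.36 ± 0.225 and 8.54 ± 0.127 in the same order, and its rise in the Il1b KO (1.43-fold, limma adjusted p = 0.0384) lost its call without Il1b KO replicates 1, 3 or 4 or wild type replicates 1, 3 or 4 (limma adjusted p up to 0.133). Aim2, which detects DNA in the cytosol and starts an inflammasome, averaged 7.25 ± 0.202, 7.67 ± 0.100 and 7.77 ± 0.0814, and its rise (1.33-fold, limma adjusted p = 0.0486) lost its call without Il1b KO replicates 1, 2, 3 or 4 or wild type replicates 1, 2 or 4 (limma adjusted p up to 0.147). Ankub1 averaged 7.56 ± 0.120, 7.98 ± 0.0666 and 8.19 ± 0.143 and lost its call without Il1b KO replicates 1 or 3 or wild type replicate 4 (limma adjusted p up to 0.0638), and Olfml1, a secreted olfactomedin-like protein, averaged 7.87 ± 0.0952, 8.30 ± 0.0532 and 8.20 ± 0.0915.

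Further isolated rises were those of Pnck, a kinase of the calmodulin-dependent family, at 1.43-fold (from 9.39, 9.42, 9.15 and 9.23 to 9.87, 9.80, 9.82 and 9.79, limma adjusted p = 2.57e-04), and of Hoxa10, a homeobox gene of the lumbar cord, at 1.38-fold (from 8.33, 8.09, 8.27 and 8.27 to 8.74, 8.84, 8.60 and 8.64, limma adjusted p = 0.00318). Ppwd1, a spliceosomal isomerase, rose 1.39-fold (limma adjusted p = 0.00540). Each of these had every knockout array above every wild-type array, as did every called rise but that of Rfesd, given below. This held for 5.06% of all genes. Moxd1, a relative of dopamine beta-hydroxylase, rose 1.34-fold (limma adjusted p = 0.0376) and lost its call without Il1b KO replicates 1, 3 or 4 or wild type replicates 1, 3 or 4 (limma adjusted p up to 0.143). Rfesd was the single called gene whose groups overlapped, at 8.35, 8.41, 8.57 and 8.44 in wild type and 8.91, 8.57, 8.85 and 8.83 in the knockout, and lost its call without Il1b KO replicates 1, 3 or 4 or wild type replicates 1, 2 or 4 (limma adjusted p up to 0.137).

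Neural and vascular genes were among those that rose by small amounts, and apart from Calb2 and Rgs5 the ones named here were chosen after their values were seen. Calb2, the calcium buffer calretinin, read 11.22, 11.32, 11.18 and 11.08 in wild type and 11.54, 11.47, 11.54 and 11.62 in the knockout (1.27-fold, limma adjusted p = 0.0418), and lost its call without Il1b KO replicates 1, 2, 3 or 4 or wild type replicates 1, 3 or 4 (limma adjusted p up to 0.159). Nptx1, a pentraxin that clusters glutamate receptors, rose 1.18-fold (limma adjusted p = 0.00525), and the glutamate receptor Grm4 rose 1.17-fold (limma adjusted p = 0.00625). Erbb4, a neuregulin receptor, rose 1.23-fold (limma adjusted p = 0.0131) and lost its call without Il1b KO replicate 1 (limma adjusted p = 0.0558). Vwf, the von Willebrand factor of endothelium and platelets, went from 9.36, 9.33, 9.16 and 9.40 to 9.52, 9.71, 9.66 and 9.54 (1.23-fold, limma adjusted p = 0.0405), and Rgs5, a pericyte gene, from 9.06, 9.07, 9.01 and 9.0 to 9.29, 9.18, 9.30 and 9.26 (1.16-fold, limma adjusted p = 0.0330). The calls of Vwf and Rgs5 were less firm, as Vwf lost its call in each of the 8 fits without an array (limma adjusted p up to 0.141) and Rgs5 lost its call without Il1b KO replicates 1, 3 or 4 or wild type replicates 3 or 4 (limma adjusted p up to 0.124). Of the 49 isolated genes that rose, 17 kept their call in all 8 fits without an array, 12 passed when only the 8 arrays entered, and 30 passed after repeated quantile normalization.

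Among the isolated falls, G530011O06Rik, a long noncoding RNA of the X chromosome, read 9.03, 9.86, 9.55 and 9.21 in wild type and 7.16, 7.15, 7.42 and 7.35 in the Il1b KO, 4.41-fold lower (95% interval of the log2 fold change -2.63 to -1.65, limma adjusted p = 2.57e-04). Its wild-type arrays varied more than its knockout arrays, yet all lay above them, and it averaged 8.68 ± 0.536 in the Il1a KO. Alox8, a lipoxygenase of arachidonic acid, went from 8.31, 8.22, 8.39 and 8.33 to 7.07, 7.36, 6.94 and 6.88, 2.38-fold lower (limma adjusted p = 6.23e-06), and averaged 8.37 ± 0.117 in the Il1a KO. Uts2, the vasoactive peptide urotensin of motor neurons, fell 1.78-fold, from 9.64, 9.52, 9.42 and 9.91 to 8.84, 8.87, 8.68 and 8.77 (limma adjusted p = 1.9e-04). Gabra2, an inhibitory GABA-A receptor subunit, fell 1.62-fold (limma adjusted p = 3.48e-05), with means of 10.34 ± 0.107 in wild type, 9.65 ± 0.0545 in the Il1b KO and 9.48 ± 0.0958 in the Il1a KO, where it also passed (limma adjusted p = 1.37e-05). Dctd, the deaminase that makes dUMP for thymidine synthesis, fell 1.60-fold (limma adjusted p = 3.62e-04), from 9.34, 9.36, 9.71 and 9.60 to 8.85, 8.86, 8.81 and 8.79. Shisa6, an auxiliary subunit of AMPA receptors, fell 1.41-fold (limma adjusted p = 0.00724), and Tctex1d2, a dynein light chain, 1.44-fold (limma adjusted p = 5.4e-04). The little described gene 1700029J07Rik fell 1.42-fold (limma adjusted p = 7.49e-04). All 31 isolated falls had groups without overlap, as did 161 of the 162 called genes, so this adds little to the call. Of all genes, 1.94% were lower without overlap. Of the 31 falls, 17 kept their call in all 8 fits without an array.

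Several isolated falls were genes of myeloid cells and innate immunity, of which Gpr84, Naip5, Sucnr1, Hrh1 and Cd244a were chosen after their values were seen. Ly6g, the surface antigen that defines neutrophils in mice, read 6.70, 6.78, 6.58 and 6.79 in wild type and 5.96, 6.28, 6.18 and 6.24 in the Il1b KO (1.47-fold lower, limma adjusted p = 0.00869), and averaged 6.26 ± 0.183 in the Il1a KO. All its knockout arrays were below wild type, at a dim level (percentile 20.4 over the 12 arrays). Gpr84, a receptor for medium-chain fatty acids on activated myeloid cells, went from 9.02, 9.04, 9.26 and 9.13 to 8.70, 8.52, 8.73 and 8.78 (1.35-fold lower, limma adjusted p = 0.00516). Naip5, the inflammasome sensor of bacterial flagellin, went from 6.31, 6.42, 6.26 and 6.39 to 5.89, 5.99, 6.07 and 5.94 (1.30-fold lower, limma adjusted p = 0.00328). Mlkl, the effector of necroptosis, went from 7.21, 7.08, 7.12 and 6.95 to 6.69, 6.71, 6.77 and 6.72 (1.29-fold lower, limma adjusted p = 0.00328), with a mean of 6.84 ± 0.0600 in the Il1a KO. These 4 genes kept their call in all 8 fits without an array. The mean of the 18 measured neutrophil markers ran from 7.15 to 7.47 on the wild-type arrays and from 6.87 to 7.40 on the Il1b KO arrays, and its part in these falls was not tested. Less firm were Sucnr1, the succinate receptor (1.32-fold lower, limma adjusted p = 0.0272), which lost its call without Il1b KO replicates 1, 2 or 3 or wild type replicates 2, 3 or 4 (limma adjusted p up to 0.114), and Hrh1, a histamine receptor (1.13-fold lower, limma adjusted p = 0.0304), which lost its call without Il1b KO replicates 1, 3 or 4 or wild type replicates 1, 2 or 4 (limma adjusted p up to 0.107). Cd244a, a receptor of natural killer and other leukocytes, fell 1.15-fold (limma adjusted p = 0.0395) and lost its call without Il1b KO replicates 1, 2 or 4 or wild type replicates 1, 3 or 4 (limma adjusted p up to 0.151). Sox9, a transcription factor of astrocytes, fell 1.14-fold (limma adjusted p = 0.0405) and lost its call in each of the 8 fits without an array (limma adjusted p up to 0.120).

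**Figure D3:**
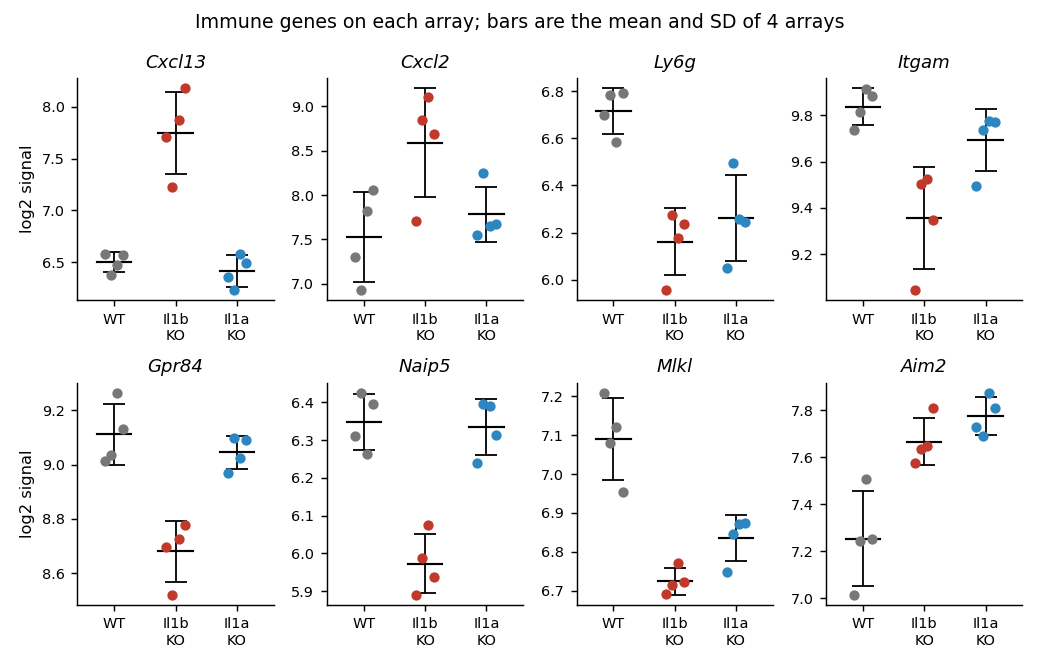
Log2 signal of 8 immune genes on each array; points are arrays, and bars give the mean and SD of the 4 arrays of a group. Ly6g, Gpr84, Naip5 and Mlkl lie lower and Cxcl13 higher on all 4 Il1b KO arrays than on any wild-type array, whereas Cxcl2 overlaps between the groups through Il1b KO replicate 1.

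Called genes lay close to other called genes. Of the 161 placed called genes, 81 (50.3%) had another called gene within 10 measured genes, against 11.7% of all placed genes. One dense stretch was the part of chromosome 2 that ends at the Il1b locus. Its ends, Cd59b and Il1bos, were set at called genes. The shares inside and outside it therefore describe where the calls lay and are no test. From Cd59b to Il1bos 268 genes were measured, of which 25 (9.33%) were called, 13 higher and 12 lower, while of the other 1464 measured genes of chromosome 2 Tmem141 alone was called (0.0683%), and it lost its call without Il1b KO replicates 1, 2 or 3 or wild type replicates 2, 3 or 4 (limma adjusted p up to 0.128). Across this stretch 18.7% of genes had groups that did not overlap, against 5.26% in the rest of the chromosome. The stretch held 6 of the 12 runs, the pair of Kcnip3 and Mall, and the isolated genes B2m and Slc27a2. Past Il1bos, on the other side of the locus, no gene of chromosome 2 was called. How the Il1b line was made and how often it was backcrossed are not stated in the labels. A response to the loss of Il1b and a difference carried with the targeted locus therefore cannot be told apart for these genes. Called genes made up 1.49% of the measured genes of chromosome 5 and 1.47% of chromosome 8, beside 0.813% of all genes. Other chromosomes had lower shares, down to 0 of 652 genes on chromosome 12. Whether genes called outside chromosome 2, in runs, in pairs or isolated, differed through genetic background rather than the loss of Il1b was not tested.

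**Figure D4:**
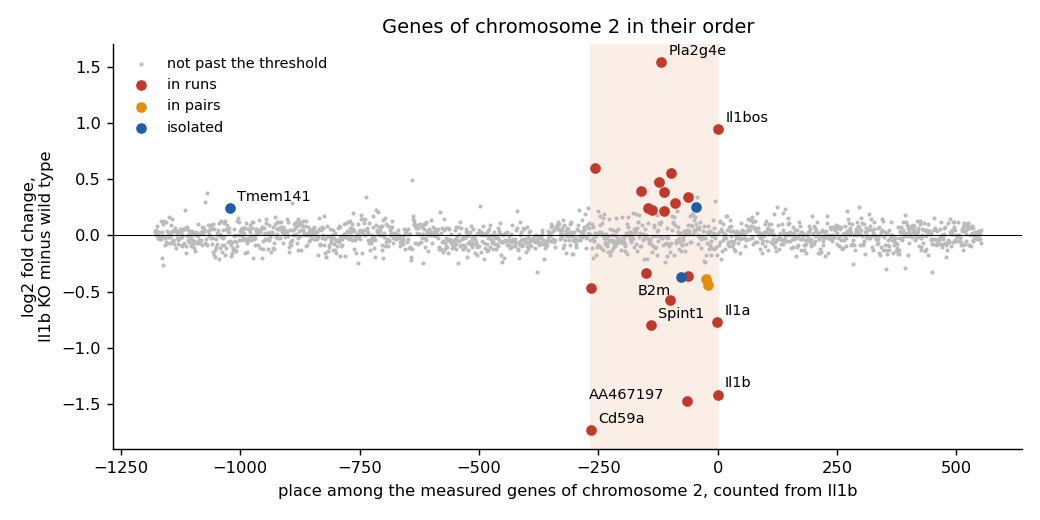
Log2 fold change (y axis, Il1b KO minus wild type) of the measured genes of chromosome 2 in their order (x axis, places counted from Il1b). Shading marks the 268 genes from Cd59b to Il1bos, which hold 25 of the 26 called genes of the chromosome, with rises and falls side by side. The ends of the shading were set at called genes.

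The farthest run of this stretch held Cd59b, Cd59a and Depdc7. Cd59a, which shields cells from the membrane attack complex of complement, read 11.49, 11.47, 11.65 and 11.55 in wild type and 9.81, 9.57, 9.89 and 9.94 in the Il1b KO (3.33-fold lower, limma adjusted p = 4.43e-08). In the Il1a KO it averaged 10.94 ± 0.0628 and also passed (limma adjusted p = 0.00304), between wild type (11.54 ± 0.0847) and the Il1b KO (9.80 ± 0.167). Its close copy Cd59b averaged 7.01 ± 0.122 in wild type and 6.54 ± 0.177 in the knockout (limma adjusted p = 0.0165), and lost its call without Il1b KO replicate 4 or wild type replicate 2 (limma adjusted p up to 0.0697). The array may not separate the copies fully. Depdc7 rose 1.51-fold (limma adjusted p = 0.00924).

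The run of Srp14, Ivd, Rmdn3, Spint1 and Rhov mixed 3 rises with 2 falls. Spint1, an inhibitor of the proteases that activate hepatocyte growth factor, read 8.17, 8.06, 7.96 and 8.18 in wild type and 7.13, 7.48, 7.35 and 7.21 in the knockout (1.74-fold lower, limma adjusted p = 1.11e-04). Ivd, which breaks down leucine in mitochondria, fell 1.26-fold (limma adjusted p = 0.00363), and Srp14, a subunit of the signal recognition particle, rose 1.32-fold (limma adjusted p = 0.00724). Rmdn3 lost its call without Il1b KO replicates 1 or 3 or wild type replicate 4 (limma adjusted p up to 0.0557), and Rhov lost its call without Il1b KO replicates 1, 2 or 3 or wild type replicates 1, 3 or 4 (limma adjusted p up to 0.134).

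In the next run Tyro3, Pla2g4e, Zfp106 and Snap23 all rose. Pla2g4e, a phospholipase that forms N-acyl lipids, read 7.43, 7.29, 7.23 and 7.09 in wild type and 8.75, 8.71, 8.80 and 8.93 in the knockout, 2.91-fold higher (limma adjusted p = 4.43e-08), and averaged 7.25 ± 0.0465 in the Il1a KO. Zfp106, an RNA-binding zinc finger protein of motor neurons, rose 1.31-fold (limma adjusted p = 6.31e-05), and Tyro3, a receptor kinase of the family that dampens innate immunity, rose 1.39-fold, from 8.85, 8.85, 8.64 and 8.72 to 9.39, 9.13, 9.30 and 9.15 (limma adjusted p = 0.00255). Snap23, a SNARE of exocytosis, rose 1.16-fold and lost its call without Il1b KO replicates 1, 2, 3 or 4 or wild type replicates 1, 2 or 4 (limma adjusted p up to 0.117). Further along, Lcmt2 fell 1.49-fold (limma adjusted p = 7.09e-04), while the deaminase Adal rose 1.47-fold (limma adjusted p = 6.19e-04) and the sperm channel gene Catsper2 1.22-fold (limma adjusted p = 0.0230), which lost its call without Il1b KO replicates 1, 3 or 4 or wild type replicates 1, 2 or 4 (limma adjusted p up to 0.0900).

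The run of AA467197, Bloc1s6 and Sqor lay between B2m and the Il1b locus. AA467197, which also hosts a microRNA in its transcript, read 8.97, 8.95, 9.22 and 9.13 in wild type and 7.50, 7.60, 7.68 and 7.61 in the knockout (2.77-fold lower, limma adjusted p = 7.85e-06). Bloc1s6, a subunit of the complex that builds lysosome-related organelles, rose 1.27-fold (limma adjusted p = 0.00293). Sqor, which oxidizes hydrogen sulfide, fell 1.28-fold (limma adjusted p = 0.0142) and lost its call without Il1b KO replicate 4 or wild type replicate 4 (limma adjusted p up to 0.0599). B2m, the light chain of MHC class I molecules, read 12.25, 12.45, 12.47 and 12.48 in wild type and 12.11, 11.86, 12.11 and 12.11 in the Il1b KO (1.29-fold lower, limma adjusted p = 0.0208), and lost its call without wild type replicates 2, 3 or 4 (limma adjusted p up to 0.0907). At percentile 99.2 over the 12 arrays it was among the brightest genes. Nearest to the locus, Kcnip3, a calcium-binding partner of potassium channels, fell 1.31-fold (limma adjusted p = 0.00774) and the membrane protein gene Mall 1.35-fold (limma adjusted p = 9.51e-04). Slc27a2, a fatty acid transporter, rose 1.19-fold (limma adjusted p = 0.0330) and lost its call without Il1b KO replicates 1, 2, 3 or 4 or wild type replicates 1 or 4 (limma adjusted p up to 0.120).

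The other runs lay on chromosomes 4, 5, 6 and 8, and for them too a part of genetic background was not tested. On chromosome 5, Naaa, Cxcl11, Shroom3 and Cxcl13 lay within 19 measured genes. Cxcl13, the chemokine that draws B cells through Cxcr5, read 6.58, 6.37, 6.47 and 6.57 in wild type and 7.71, 7.23, 7.87 and 8.18 in the Il1b KO (2.37-fold higher, limma adjusted p = 7.67e-04), a rise on every array though with a wide spread in the knockout. Cxcl11, listed by RefSeq as a transcribed pseudogene in the reference strain, rose 1.48-fold, from 6.53, 6.26, 6.30 and 6.58 to 6.91, 7.03, 6.74 and 7.23 (limma adjusted p = 0.0154). Naaa, the lysosomal enzyme that breaks down the anti-inflammatory lipid palmitoylethanolamide, fell from 10.15, 10.25, 10.15 and 10.10 to 9.56, 9.45, 9.67 and 9.64 (log2 fold change -0.58, just under 1.5-fold, limma adjusted p = 3.26e-05). Shroom3 lost its call in each of the 8 fits without an array (limma adjusted p up to 0.167). Their means in the Il1a KO were 6.42 ± 0.151 for Cxcl13, 6.44 ± 0.0915 for Cxcl11 and 10.12 ± 0.0259 for Naaa, near those of wild type (6.50 ± 0.0984, 6.42 ± 0.161 and 10.16 ± 0.0597). Elsewhere on the chromosome Gcn1, an activator of the integrated stress response, rose 1.16-fold, the ribosomal stalk gene Rplp0 fell 1.18-fold, and Coq5, of ubiquinone synthesis, rose 1.26-fold (limma adjusted p = 0.00869, 0.00917 and 0.0162). Coq5 lost its call without Il1b KO replicates 1, 3 or 4 or wild type replicate 4 (limma adjusted p up to 0.0675).

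Chromosome 4 held a pair of runs. In the first, Mrpl20, of the mitochondrial ribosome, read 8.80, 8.84, 9.05 and 8.86 in wild type and 9.65, 9.52, 9.70 and 9.53 in the knockout (1.63-fold higher, limma adjusted p = 2.31e-05). The noncoding gene Gm16008 fell 1.68-fold (limma adjusted p = 3.56e-06) and the adipokine gene C1qtnf12 1.53-fold (limma adjusted p = 1.63e-04). Mxra8, a receptor of arthritogenic alphaviruses, fell 1.27-fold and Acap3 rose 1.23-fold (limma adjusted p = 0.00896 and 0.00151). In the second, Sfn fell 1.38-fold (limma adjusted p = 0.00520), the dolichol synthesis gene Dhdds 1.17-fold (limma adjusted p = 0.0158) and Map3k6 by just under 1.5-fold (log2 fold change -0.58, limma adjusted p = 0.0376), and Nudc rose 1.22-fold (limma adjusted p = 0.0187). Dhdds lost its call without Il1b KO replicates 3 or 4 (limma adjusted p up to 0.0667), Map3k6 lost its call without Il1b KO replicates 1, 2, 3 or 4 or wild type replicates 1, 3 or 4 (limma adjusted p up to 0.145), and Nudc lost its call without Il1b KO replicates 1 or 2 or wild type replicate 4 (limma adjusted p up to 0.0769).

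On chromosome 6, Arntl2, a partner of the circadian protein Clock, read 8.56, 8.43, 8.76 and 8.62 in wild type and 7.71, 7.72, 7.63 and 7.73 in the knockout (1.86-fold lower, limma adjusted p = 3.74e-06). Med21, of the Mediator complex, fell 1.31-fold (limma adjusted p = 0.00140) and Etfrf1 1.37-fold (limma adjusted p = 0.0113). Abcc9, the sulfonylurea receptor of pericytes, rose 1.15-fold (limma adjusted p = 0.0187) and lost its call without Il1b KO replicates 1, 3 or 4 or wild type replicate 1 (limma adjusted p up to 0.0766), and Bcat1, of branched-chain amino acid breakdown, lost its call without Il1b KO replicates 1, 2, 3 or 4 or wild type replicates 1, 2 or 3 (limma adjusted p up to 0.126). On chromosome 8, Mtus1, a microtubule-associated protein, rose 1.30-fold (limma adjusted p = 2.63e-05) from 4 nearly equal wild-type values (8.99, 9.0, 9.01 and 9.0). Frg1 fell 1.48-fold (limma adjusted p = 2.98e-04) and Pdgfrl rose 1.25-fold (limma adjusted p = 0.00841). Over all 12 runs 23 genes rose and 22 fell, 32 kept their call in all 8 fits without an array, and 27 passed with the 8 arrays alone. How many genes count as runs depended on the spacing, with 16 genes at steps of at most 5 and 59 at steps of at most 20. The number of isolated genes depended on it too, with 101 at steps of at most 5 and 58 at steps of at most 20.

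Pairs of called neighbours were mostly lower, with 12 genes higher and 24 lower. Trim30d and Trim12a, of a family of interferon-inducible TRIM proteins, fell 3.41-fold and 3.21-fold. Trim30d read 7.02, 7.07, 7.46 and 7.20 in wild type and 5.25, 5.37, 5.67 and 5.40 in the Il1b KO (limma adjusted p = 6.33e-05). Trim12a read 6.23, 6.61, 6.45 and 6.38 in wild type and 4.69, 4.49, 4.89 and 4.86 in the Il1b KO (limma adjusted p = 2.28e-06). Both belong to a cluster of near-identical copies on chromosome 7, so the array may not tell the members apart. In the Il1a KO they averaged 7.25 ± 0.390 and 6.39 ± 0.191, beside 7.19 ± 0.196 and 6.42 ± 0.159 in wild type.

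Ly86, the partner of the Toll-like receptor relative RP105 on B cells and macrophages, read 11.19, 11.16, 11.25 and 11.27 in wild type and 10.18, 10.07, 10.20 and 10.14 in the Il1b KO (2.10-fold lower, limma adjusted p = 2.21e-07). The arrays lay close together within each group and far apart between the groups. Its neighbour Ssr1, of the translocon, fell 1.24-fold (limma adjusted p = 4.37e-04). Rpl34, of the large ribosomal subunit, went from 10.15, 10.21, 10.30 and 10.26 to 9.16, 9.22, 9.27 and 9.08 (2.07-fold lower, limma adjusted p = 4.43e-08), and copies of such genes elsewhere in the genome make its identity uncertain. Etnppl, an astrocyte enzyme that breaks down phosphoethanolamine, lay beside it and fell 1.62-fold (limma adjusted p = 1.83e-05).

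Nnt, the mitochondrial enzyme that supplies NADPH, read 9.43, 9.49, 9.45 and 9.54 in wild type and 8.69, 8.65, 8.73 and 8.69 in the Il1b KO (1.72-fold lower, limma adjusted p = 3.56e-07), and averaged 8.68 ± 0.0682 in the Il1a KO. The chemokine Ccl28, 5 measured genes away, fell 1.46-fold, with means of 7.14 ± 0.0739 in wild type, 6.59 ± 0.0883 in the Il1b KO and 6.60 ± 0.120 in the Il1a KO (limma adjusted p = 5.4e-04 for the Il1b KO). Both genes were thus low in both knockouts relative to the shared wild-type arrays (limma adjusted p = 9.82e-07 and 0.00230 for the Il1a KO), and the labels do not give the C57BL/6 substrain. Itgam, the CD11b integrin of neutrophils, monocytes and microglia, read 9.73, 9.81, 9.91 and 9.88 in wild type and 9.05, 9.51, 9.53 and 9.35 in the Il1b KO (1.39-fold lower, limma adjusted p = 0.0384). Il1b KO replicate 1, the array with the lowest mean of neutrophil markers, was the lowest here too, and Itgam lost its call without Il1b KO replicates 1 or 4 or wild type replicates 2, 3 or 4 (limma adjusted p up to 0.135). Its neighbour Rusf1 rose 1.17-fold and lost its call without Il1b KO replicates 1 or 3 or wild type replicate 4 (limma adjusted p up to 0.0724).

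Among other paired genes, Fam169a rose 1.65-fold (limma adjusted p = 2.14e-04) beside F2r, the thrombin receptor, which rose 1.26-fold (limma adjusted p = 0.00328). Rbm46 rose 1.55-fold (limma adjusted p = 7.01e-04) next to Gucy1a1, the nitric oxide sensor subunit, which fell 1.41-fold (limma adjusted p = 0.00520). Guk1, guanylate kinase, rose 1.41-fold (limma adjusted p = 2.31e-05), Cox18 rose 1.32-fold (limma adjusted p = 0.00108) and Bche, butyrylcholinesterase, 1.36-fold (limma adjusted p = 0.00605). Dnah7b and its close copy Dnah7c, dyneins of cilia, fell 1.51-fold and 1.45-fold (limma adjusted p = 0.00255 and 4.6e-04). Gm1966 fell 1.52-fold (limma adjusted p = 4.37e-04), Nlrp1c-ps, an inflammasome pseudogene, fell 1.44-fold (limma adjusted p = 0.00255), and AI429214 rose 1.29-fold and lost its call without Il1b KO replicates 2, 3 or 4 or wild type replicates 2, 3 or 4 (limma adjusted p up to 0.123).

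Gene lists were read next for the pathways around interleukin-1. The 33 lists held 452 measured genes, of which 15 (3.32%) were called, 6 higher and 9 lower, beside 0.813% of all genes. Several of the called members entered the lists with their results known, so this share is no support for the lists. List medians are set beside the median of all genes, a log2 fold change of 0.00397.

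Of the interleukin-1 family and its receptors, 14 members were measured besides Il1b, and Il1a was the called one. Il1r2, the decoy receptor, read 8.17, 7.90, 8.54 and 8.57 in wild type and 7.11, 7.87, 8.01 and 7.77 in the Il1b KO (log2 fold change -0.61, limma adjusted p = 0.171). Il1rn, the antagonist, read 8.42, 8.09, 8.48 and 8.51 in wild type and 8.50, 8.99, 8.90 and 8.63 in the Il1b KO (log2 fold change 0.38, limma adjusted p = 0.198). Neither passed, and in each the arrays of the groups overlapped. Il1rap, the receptor's accessory protein, had a log2 fold change of 0.05 (95% interval -0.09 to 0.19), and Il1r1 was not analysed here. Of 18 intracellular signalling genes 0 were called by limma, with 4 at an unadjusted p under 0.05 (list median 0.02). The kinase Irak2 had a log2 fold change of 0.23 (limma adjusted p = 0.0633), with all knockout arrays above wild type, and the inflammasome adaptor Pycard one of -0.27 (limma adjusted p = 0.0648).

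The listed NF-kB targets were close to wild type as a list. This list did not hold Il6 or Cxcl2, which are given with the cytokines and the CXC chemokines. It was chosen with earlier results of these data known. Of 22 members 0 were called by limma and 1, Icam1, had an unadjusted p under 0.05, and the list median was -0.00604. Icam1, the leukocyte adhesion molecule of endothelium, read 8.72, 8.66, 8.65 and 8.59 in wild type and 8.40, 8.54, 8.43 and 8.51 in the Il1b KO (log2 fold change -0.19, limma adjusted p = 0.177). Ptgs2, which makes prostaglandins, had a log2 fold change of 0.11 (95% interval -0.17 to 0.40), Nos2 of -0.14 (-0.33 to 0.05), Tnf of -0.08 (-0.22 to 0.07) and Vcam1 of -0.11 (-0.23 to 0.01). Every one of these intervals held 0. Of 18 inflammatory cytokines 0 were called by limma, with 3 above and 2 below wild type at an unadjusted p under 0.05. Il6 read 5.69, 5.56, 6.19 and 6.03 in wild type and 5.86, 6.05, 7.05 and 6.28 in the Il1b KO (log2 fold change 0.45, limma adjusted p = 0.386), with replicate 3 the highest. Osm, a cytokine of the same family, had a log2 fold change of 0.28 (limma adjusted p = 0.278) and Tnfsf11, the ligand RANKL, of -0.23 (limma adjusted p = 0.280).

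Acute-phase genes had 0 called of 18 by limma, with 1 above and 4 below wild type at an unadjusted p under 0.05 (median -0.04). Saa2 had a log2 fold change of -0.33 (limma adjusted p = 0.199), Saa3 of -0.16 (95% interval -0.50 to 0.18), the iron-binding lipocalin Lcn2 of -0.13 (-0.41 to 0.14) and the cytokine-signal inhibitor Socs3 of 0.02 (-0.19 to 0.23).

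CXC chemokines gave 2 called genes of 16, Cxcl13 and Cxcl11, both higher and both in the run on chromosome 5. Cxcl2, a neutrophil chemoattractant, read 7.31, 6.93, 7.82 and 8.06 in wild type and 7.70, 8.85, 9.11 and 8.69 in the Il1b KO. Knockout replicates 2, 3 and 4 lay above all wild-type arrays but replicate 1 did not, and the log2 fold change of 1.06 (2.08-fold, SE 0.292) did not pass (limma adjusted p = 0.140). Without Il1b KO replicate 1 it passed (limma adjusted p = 0.0266). Cxcl1, which acts on the same receptor, had a log2 fold change of -0.02 (95% interval -0.20 to 0.15). Of 18 CC chemokines Ccl28 was called, and it was lower. Ccl5, made by T cells and macrophages, read 8.74, 9.06, 8.98 and 8.91 in wild type and 8.59, 8.64, 8.61 and 8.69 in the Il1b KO (log2 fold change -0.29, limma adjusted p = 0.0575), a separation without overlap that missed the threshold. Ccl2, which draws monocytes, had a log2 fold change of 0.09 (95% interval -0.14 to 0.33). Of 14 chemokine receptors 0 were called by limma, with Cx3cr1 alone at an unadjusted p under 0.05 (-0.20, limma adjusted p = 0.118), and Cxcr2, the neutrophil receptor, was at -0.36 (limma adjusted p = 0.502).

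Neutrophil markers had a list median of -0.13, and 13 of 18 were below wild type, with Ly6g called. The list means of the groups overlapped, and that of Il1b KO replicate 1 was the lowest of all arrays. Mmp9, a protease of neutrophil granules, had a log2 fold change of -0.29 (limma adjusted p = 0.258). Among the abundant granule genes, S100a8 was at -0.09 and S100a9 at 0.08. Monocyte and macrophage markers had a median of -0.02 and 0 called of 13 by limma (3 at an unadjusted p under 0.05). Arg1, of wound-healing macrophages, read 10.10, 10.09, 10.19 and 10.22 in wild type and 9.0, 10.16, 9.92 and 9.68 in the Il1b KO (log2 fold change -0.46, limma adjusted p = 0.296), low mainly in replicate 1. Plac8, a gene of inflammatory monocytes, had a log2 fold change of 0.27 (limma adjusted p = 0.311). Homeostatic microglia genes had 0 called of 12 by limma (3 at an unadjusted p under 0.05). Fcrls read 9.15, 9.29, 8.89 and 9.16 in wild type and 9.44, 9.51, 9.53 and 9.35 in the Il1b KO (log2 fold change 0.34, limma adjusted p = 0.0636), above wild type while 10 of the 12 members were below it. Lymphocyte and natural killer genes had 0 called of 14 by limma (Cd79a alone at an unadjusted p under 0.05, 0.17), with Gzmb at -0.15.

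Interferon-stimulated genes lay below wild type in 18 of 20 members (median -0.15), with 0 called by limma and 4 at an unadjusted p under 0.05. Oasl2, an antiviral oligoadenylate synthetase-like protein, read 10.03, 9.76, 10.19 and 9.97 in wild type and 9.25, 9.20, 9.59 and 9.54 in the Il1b KO (log2 fold change -0.60, limma adjusted p = 0.106), without overlap. Iigp1, a GTPase that attacks pathogen vacuoles, had a log2 fold change of -0.35 (limma adjusted p = 0.320). By array the list mean ran from 8.23 to 8.46 in wild type, from 7.97 to 8.28 in the Il1b KO and from 7.99 to 8.62 in the Il1a KO, and the genotypes overlapped. MHC class II presentation genes lay on the other side, with 6 of 8 above wild type (median 0.31), 0 called by limma and 5 at an unadjusted p under 0.05. The invariant chain Cd74 read 8.69, 8.90, 8.59 and 8.94 in wild type and 9.01, 9.10, 9.75 and 9.21 in the Il1b KO (log2 fold change 0.49, limma adjusted p = 0.186), and H2-Aa read 8.59, 8.77, 8.19 and 8.69 and 8.85, 8.84, 9.55 and 8.86 (log2 fold change 0.46, limma adjusted p = 0.278). In both genes Il1b KO replicate 3 stood well above the others. The class I light chain B2m was called lower, as given with the genes of chromosome 2.

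Complement gave 3 called of 18, beside 0.813% of all genes called, with Masp2 higher and Cd59a and Cd59b lower. Cd59a and Cd59b are the close copies in the chromosome 2 stretch that ends at the Il1b locus, and the array may not separate them fully. The other 15 members had log2 fold changes between -0.19 (Cfb, of the alternative pathway) and 0.11 (Cfp, properdin). Enzymes of eicosanoid synthesis gave Pla2g4e, of the same stretch, higher and Alox8 lower among 19, and the other 17 lay between -0.23 (Alox5) and 0.13 (Ptgds). Cell death regulators had Mlkl called lower of 16 (median -0.07), with Casp6 at -0.18 (limma adjusted p = 0.166). Metalloproteinases and their inhibitors had 0 called of 15 by limma (3 at an unadjusted p under 0.05), with Mmp12 at -0.17 and Adamts4 at 0.13. Leukocyte adhesion genes had Itgam called lower of 10.

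Oligodendrocyte genes lay above wild type together. All 15 measured markers of mature oligodendrocytes had a positive log2 fold change (median 0.12, range 0.03 to 0.28), and 14 were positive after repeated quantile normalization. By limma 0 were called, and 8 had an unadjusted p under 0.05, against 8.42% of all genes in that direction. The list mean ran from 11.40 to 11.51 in wild type and from 11.50 to 11.62 in the Il1b KO, nearly without overlap, and from 11.55 to 11.71 in the Il1a KO. Gpr37, a receptor of myelinating cells, read 10.75, 10.85, 10.62 and 10.68 in wild type and 11.07, 10.90, 11.07 and 10.90 in the Il1b KO (log2 fold change 0.26, limma adjusted p = 0.0999). Fa2h, which hydroxylates myelin lipids, had a log2 fold change of 0.16 (limma adjusted p = 0.244). Of 10 genes of oligodendrocyte precursors 8 were positive and 7 had an unadjusted p under 0.05, with 0 called by limma (median 0.14). C1ql1 read 9.24, 9.33, 9.30 and 9.32 in wild type and 9.53, 9.57, 9.67 and 9.42 in the Il1b KO (log2 fold change 0.25, limma adjusted p = 0.0633), and Gpr17, a receptor of differentiating precursors, read 8.18, 8.23, 7.86 and 7.94 and 8.64, 8.48, 8.73 and 8.27 (log2 fold change 0.48, limma adjusted p = 0.122). Precursor list means did not overlap between the groups compared, at 9.14 to 9.23 in wild type and 9.27 to 9.38 in the Il1b KO. In the Il1a KO they ran from 9.18 to 9.34, overlapping both. Cholesterol synthesis genes, which myelin needs, were positive in 14 of 15 members (median 0.07; 11 after repeated quantile normalization), with 0 called by limma and 2, Mvd (0.17) and Mvk (0.11), at an unadjusted p under 0.05.

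Astrocyte and neuron genes had small differences. Reactive astrocyte genes were negative in 16 of 18 members (median -0.09), with 0 called by limma and 3 at an unadjusted p under 0.05. Gfap, their intermediate filament, read 12.63, 12.73, 12.67 and 12.71 in wild type and 12.66, 12.66, 12.64 and 12.64 in the Il1b KO (log2 fold change -0.03, 95% interval -0.11 to 0.04), while Vim was at -0.10 and Cp, ceruloplasmin, at -0.20. Astrocyte identity genes had a median of 0.04 with Sox9 called lower of 12, and the gap junction gene Gja1 was at 0.13 (limma adjusted p = 0.279). Neuron genes had a median of 0.03 and 0 called of 17 by limma (2 at an unadjusted p under 0.05), with the nuclear marker Rbfox3 at 0.12 and the cholinergic transporter Slc5a7 at -0.15. Endothelial genes had 0 called of 11 by limma (3 at an unadjusted p under 0.05), with Flt1, a receptor of vascular growth factors, at 0.16 (limma adjusted p = 0.0645) and the transporter Mfsd2a at -0.11. Their median was 0.01 and changed sign after repeated quantile normalization. Pericyte and fibroblast genes gave Abcc9 and Rgs5 higher of 12 (median 0.07). Schwann cell genes had a median of 0.14 over 6 members, with Pmp22 and Sox10 each at 0.14 and 0 called by limma (2 at an unadjusted p under 0.05).

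Skeletal muscle genes, which mark muscle taken with the cord, were negative in 10 of 10 members (median -0.18), with 0 called by limma and 4 at an unadjusted p under 0.05. Their list mean ran from 7.31 to 7.71 in wild type, where replicates 1 and 3 were high, and from 7.22 to 7.39 in the Il1b KO. Acta1 had a log2 fold change of -0.35 and Atp2a1 of -0.49, both brightest on those wild-type arrays. The part of carried-over muscle in other differences was not tested. Erythroid genes, of blood in the tissue, had 2 measured members, Alas2 at -0.27 and Slc4a1 at -0.17. Cell cycle genes were negative in 13 of 16 (median -0.11), with Plk1 at -0.23 and Aurkb at -0.19, 0 called by limma and 5 at an unadjusted p under 0.05. Immediate early and heat shock genes had a median of 0.09 and 0 called of 14 by limma (4 at an unadjusted p under 0.05), with Dnajb1 at 0.18 and Nr4a1 at 0.20. Endoplasmic reticulum stress genes had 0 called of 13 by limma (3 at an unadjusted p under 0.05), with Xbp1 at 0.11 and Ddit3 at -0.10, and their median of 0.02 changed sign after repeated quantile normalization.

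**Figure D5:**
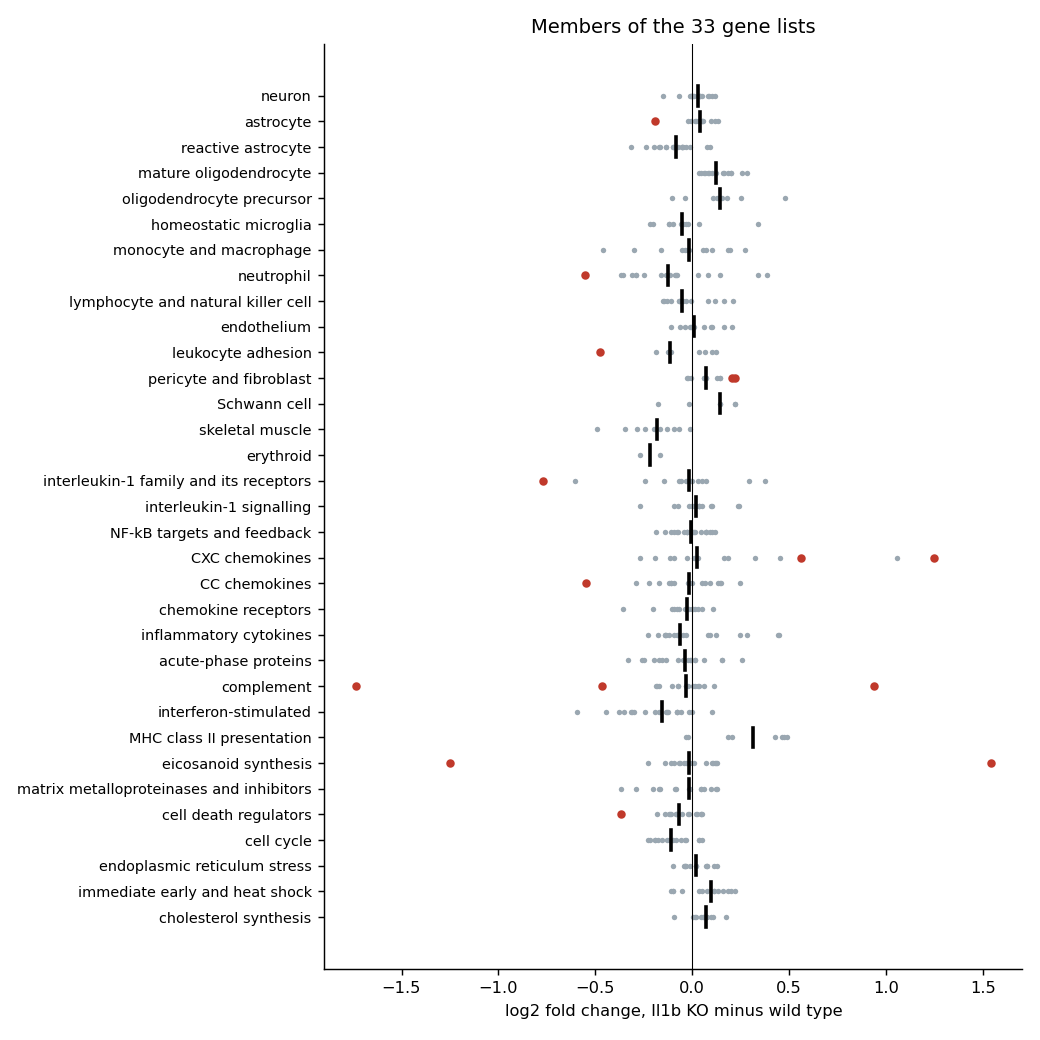
Log2 fold change (x axis, Il1b KO minus wild type) of every measured member of the 33 gene lists (y axis), 1 point per gene, with called genes in red and the list median as a black bar. Most members lie within 0.5 of 0, the oligodendrocyte lists lie to the right and the interferon-stimulated and skeletal muscle lists to the left.

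The promoters of called genes were searched for the same 3 motifs over the RefSeq windows from 250 bases before to 50 after the start, with 15563 of the 19938 genes matched to a window. The interferon-response core was found for 8 of 64 genes that fell (12.5%), namely B2m, Cd59a, Gm16008, Gm1966, Hrh1, Sqor, Trim12a and Trim30d. It was found for 2 of 61 genes that rose (3.28%), Grm8 and Mrpl20, and for 3.89% of all genes. For scale, 64.3% of the 14 matched genes of the interferon-stimulated list held it. The NF-kB consensus was found for 4 of the genes that fell (6.25%), 5 that rose (8.20%), 5.74% of all genes and 46.7% of the matched NF-kB list, and Grm8, Hrh1 and B2m held both motifs. TATAAA was found for 14.1% of the genes that fell, 4.92% of those that rose and 13.6% of all genes. Of the 8 genes that fell with the interferon-response core, Cd59a, B2m and Sqor lay in the stretch of chromosome 2 and Trim12a with Trim30d in a pair, so these are not 8 separate places in the genome. A match is a run of letters in a window and says nothing about binding.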

How the data were processed

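RNA from 12 injured cord segments, 4 per genotype, was hybridised to Affymetrix arrays. The authors deposited log2 signals of 35557 probe sets, and the submitters' processing notes name GCOS 1.4, RMA, limma and Partek. That these are RMA summaries on a log2 scale was inferred from the notes and the values, which ran from 2.97 to 14.4, and no source used here gives the genome build. Probe sets with 1 gene symbol (21789) were kept, and 1621 with several symbols and 12147 not listed in the annotation were left out. Il1r1 was not analysed here. Where a gene had several probe sets (999 genes) the brightest on average was taken, which gave 19938 genes, of which 19856 were placed by RefSeq (GRCm38.p6).

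A linear model with 1 mean per genotype was fitted to all 12 arrays with limma 3.58.1 (R 4.3.3), with two-sided moderated tests, Benjamini-Hochberg adjustment over all genes and 95% intervals. A single simulation drew each gene independently, with normal noise of this spread. The Il1b KO comparison there recovered 37.3% of changes of 0.25 on the log2 scale, 91.0% of those of 0.5 and all of those of 1. Of the calls, 7.88% were false. Variation shared between genes was not simulated, so these shares may not hold for the real arrays. The genes and lists were chosen with earlier results of these data known. Named were a fixed set of interleukin-1 genes and their targets, all genes in runs, the 20 largest rises and falls among the other called genes, and for each list its called members and those with the 2 smallest p. Other called genes that are named, such as B2m, Scn4b, Shisa6, Ssr1, F2r, Kcnip3, Mall, Slc27a2 and Rusf1, were chosen after their values were seen. Alternatives were other scalings, filters, variance models, array weights, spacings of runs and fits without each array. Precision is limited by the number of arrays.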

Additional observations from a re-analysis of the deposited data

Results flagged for a closer look

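In 302 groups of 4 arrays, taken over the 151 named genes in both genotypes, 14 had an array whose gap to its nearest neighbour took up most of the group's range. Chance alone gives this in about 1 in 20 groups. Wild type replicate 1 was high for Il1a, at 6.22 against 5.74 to 5.78, and low for Tctex1d2, at 7.17 against 7.27 to 7.28. Wild type replicate 2 was high for Dhdds, at 10.17, and for Dnajb1, at 8.94.

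Il1b KO replicate 1 was low for Map3k6, at 7.87 against 8.14 to 8.18 on the other knockout arrays. It was also low for Fam169a (9.21 against 9.42 to 9.45), Mmp12 (6.53 against 6.72 to 6.73) and Ivd (9.37 against 9.43). Replicate 2 was low for Zfp106, at 10.79, and high for Cd79a, at 6.11 against 5.90 to 5.92, and for Aurkb, at 7.54 against 7.44 to 7.45. Replicate 3 was high for H2-Aa, at 9.55 against 8.84 to 8.86, and low for Arntl2, at 7.63 against 7.71 to 7.73. Replicate 4 was low for Pdgfrl, at 7.74 against 7.86 to 7.87.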

How the results depend on the processing

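Of the 162 called genes, 147 were still present after the filter on dim genes, and all 162 were present in the other alternatives. Fewer kept their call in most fits. With array weights all 162 did, and after repeated quantile normalization 133 did. The call was kept by 112 with the replicate block, 82 with only the 8 arrays and 29 in the test against a 1.2-fold change. All genes present kept their sign. Several alternatives, such as the replicate block and the trended variance, leave the difference of means unchanged, so there the sign could not change. Of the 162, 75 kept their call in all but the test against a 1.2-fold change and the filter on dim genes. Counts moved more. Array weights gave 1145 genes, 749 higher and 396 lower, with 550 in runs, 264 in pairs and 327 isolated. Trended and robust variance gave 309, with 205 higher, 94 in runs and 160 isolated. Leaving out the dimmest 25% of genes gave 135 higher and 122 isolated. The fit of only the 8 arrays gave 85, with 32 higher, 17 in runs and 39 isolated. The test against a 1.2-fold change left 29, with 10 higher, 19 lower, 3 in runs, 6 in pairs and 20 isolated. Leaving out each array in turn gave 106 to 177 genes, 44 to 101 higher, 61 to 82 lower, 22 to 43 in runs, 36 to 40 in pairs and 45 to 99 isolated. Steps of 5 genes left 16 genes in runs, and counting 2 genes as a run gave 81 in runs and 0 in pairs. The fits without an array, or with 8, also had fewer arrays. Without wild type replicate 2 the count was 177, and without wild type replicate 3 it was 171. The cause of the changed counts was not tested.

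The labels do not say that the replicate numbers pair the arrays. Same-numbered arrays correlated at 0.01, -0.37, 0.44 and -0.03 in their deviations, and differently numbered arrays at -0.51 to 0.57. So few values cannot decide whether the numbers pair the arrays. With the replicate number as a block 120 genes passed, 50 higher, and 52 were isolated.

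No detection calls were used. Of the 32 genes at 1.5-fold or more, 26 remained once the dimmest 25% of genes were left out, all called, and 27 passed the test against a 1.2-fold change.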
